A study of Homo sapiens with 4 samples.

Results

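The interferon receptors and the signalling proteins directly behind them were examined in Hs746T cells, an established human gastric carcinoma line that carries a MET exon 14 skipping mutation together with MET amplification. The genes were the type I interferon receptor chains IFNAR1 and IFNAR2, the interferon gamma receptor chains IFNGR1 and IFNGR2, the kinases JAK1 and TYK2, and the transcription factors STAT2, IRF9 and IRF1. Every probe other than a control probe that carried a RefSeq accession or symbol of these genes was taken, which gave 11 probes of 34127 on the array, for 9 of 19740 named genes. IFNAR2 had 3 probes and each of the other genes had 1. All 11 probes were spotted once per array.

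Total RNA of the cells was hybridised to 4 Agilent human V2 gene expression arrays, with 1 colour each, all on 1 slide. One array held cells given DMSO, the solvent control, and another held cells given PHA665752, a small molecule that inhibits the MET kinase. The remaining arrays held cells transfected by means of a lipid reagent with a scrambled control siRNA (sc siRNA) or with an siRNA against MET (MET siRNA) and harvested 48 h later. For how long and at which dose the inhibitor was given before hybridisation is not given in the sources used here. The line was maintained in DMEM with fetal bovine serum, and no interferon was named among the treatments. Transfection was done in Opti-MEM, another medium, which was later replaced with complete medium. No such step was named for the DMSO and PHA665752 cells. Each condition had 1 array, so no comparison has a replicate check, and neither a test nor a p-value could be had.

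Type I interferons bind a receptor made of IFNAR1 and IFNAR2, on which the kinases TYK2 and JAK1 sit, and the activated kinases phosphorylate STAT2 among other proteins. STAT2 and IRF9 are parts of ISGF3, a complex that binds interferon-stimulated response elements (ISRE) in the promoters of antiviral genes. Interferon gamma instead uses IFNGR1 and IFNGR2 with JAK1 and JAK2, and signals to gamma-activated sites (GAS) in promoters, among them that of IRF1, itself a transcription factor of antigen presentation genes. The genes of STAT2, IRF9 and IRF1 are themselves induced by interferon in many cell types, whereas those of the receptor chains and of JAK1 and TYK2 are mostly expressed without it.

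The 75th percentile of the processed signal lay between 831 and 990.1 on the 4 arrays, and 61.1% to 68.2% of probes were well above background. The MET siRNA array had the lowest share of probes above background and the largest share of spots marked as outliers, 5.58% against 1.69% to 2.21% on the others. The MET probe gave signals of 221451 and 100492 on the DMSO and PHA665752 arrays and of 190010 and 77854 on the sc siRNA and MET siRNA arrays, which is a log2 ratio of -0.93 for the inhibitor and of -1.33 for the siRNA pair. In the check of the cell type, 6 of 7 epithelial markers were well above background on all arrays. The exception, CDH1 (E-cadherin), lay near the detection limit, with 33.0, 30.2 and 13.1 on the DMSO, PHA665752 and sc siRNA arrays and 10.4, not well above background, on the MET siRNA array. The mesenchymal markers FN1, CDH2, ZEB1, COL1A1 and COL1A2 were well above background on all arrays. Of the leukocyte markers, 4 of 6 were well above background on all arrays, with signals of 22.7 to 37.8 for PTPRC (CD45), 113 to 140.1 for CD14, 56.2 to 73.9 for ITGAM and 7212 to 12170.0 for CD68, while CD3E was well above background on none. The summed signal of the 6 leukocyte markers was 7804 with DMSO and 7436 with PHA665752, against 12053 with sc siRNA and 12402 with MET siRNA, most of it from CD68, a lysosomal protein of macrophages and other cells. This sum was higher on the arrays on which IRF9 and IRF1 were higher, through CD68. CD68 gave 7551 with DMSO and 7212 with PHA665752, against 11833 with sc siRNA and 12170 with MET siRNA. PTPRC was lower on both transfected arrays than on both others, and CD14 and ITGAM did not set the transfected arrays apart. The part of this sum in the levels of IRF9 and IRF1 was not tested. JAK1 and IRF9 were higher on the PHA665752 array than with DMSO. The summed signal there of the 5 mesenchymal markers with a usable spot on all arrays was 20048 against 9937 with DMSO. In it ZEB1 was lower, at 1449 against 2790, and the others were higher. VIM, not in that sum, gave 276821 against 291840. The sum of the 7 epithelial markers was 82879 against 132680, largely through KRT18 and CLDN4, while EPCAM, KRT8 and MUC1 were higher. That of the 4 endothelial markers was 556 against 1969, mostly through PECAM1 (304 against 1846). VWF was higher (182 against 30.9), and KDR was well above background on no array. The part of these shifts in the levels of JAK1 and IRF9 was not tested. The marker signals and their sums were not scaled, and the 75th percentile was 990.1 with DMSO and 853 with PHA665752. Scaled by it, KRT19, CDH1, VIM, CD68 and the leukocyte sum would be higher with PHA665752 than with DMSO. Unscaled, they were lower.

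Between the arrays, IRF9, STAT2 and IRF1 moved most, and the receptor chains and TYK2 moved least among the probes well above background on all arrays. Log2 ratios were taken from the processed signal after subtraction of the array's 75th percentile, and a probe was called past 2-fold when its log2 ratio was above 1 or below -1. With PHA665752 against DMSO, 0 of the 10 probes with a ratio were past 2-fold, where 20.3% of all probes with a ratio were (12.8% higher and 7.43% lower). With MET siRNA against sc siRNA, 0 of 9 were past 2-fold, where 2.93% of all probes were (2.12% higher and 0.811% lower). With sc siRNA against DMSO, a comparison of the controls with each other, 2 of 10 were past 2-fold and both were higher, where 4.19% of all probes were past 2-fold (3.06% higher and 1.13% lower). These were the probes of IRF9 and IRF1. The comparison of the controls shares an array with each of the other comparisons.

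**Figure D1:**
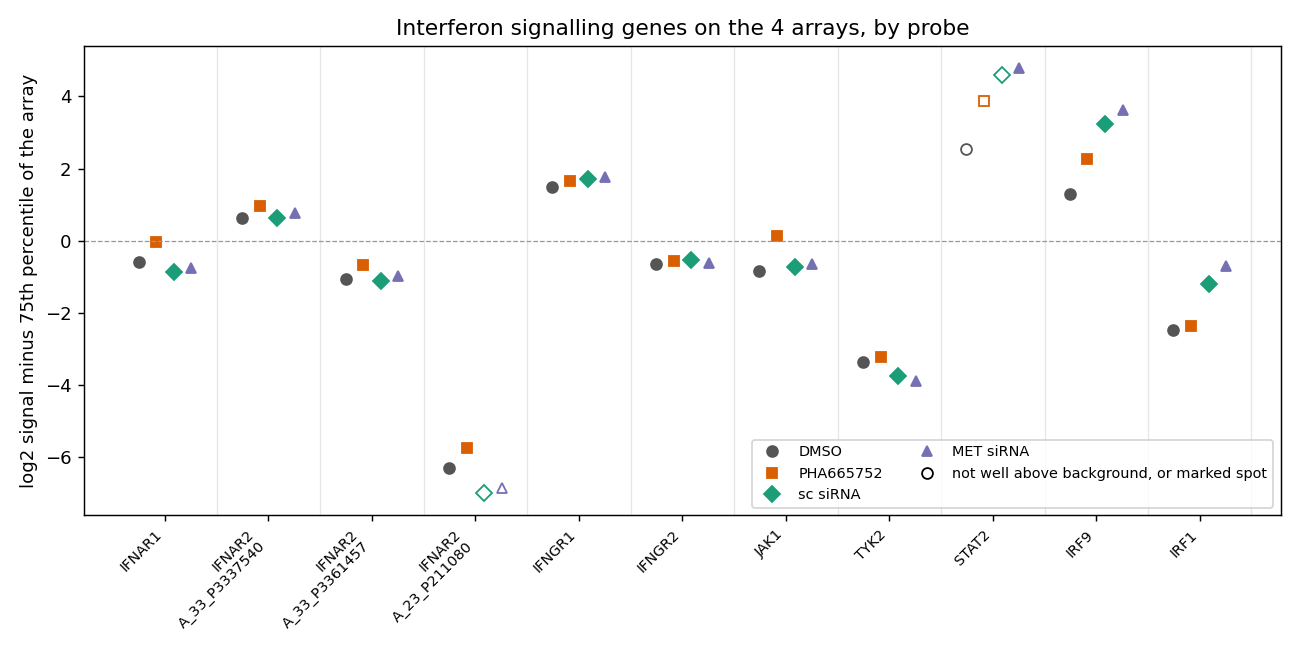
Normalized log2 signal of each of the 11 probes on the 4 arrays, with 0 at the 75th percentile of the array; open symbols are probes not well above background or spots that carried an outlier mark. IRF9 ran from 1.28 with DMSO to 3.64 with MET siRNA and IRF1 from -2.48 to -0.71, while IFNGR2 stayed within 0.13 over the arrays; heights of different probes cannot be compared with each other.

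Among the type I receptor chains, IFNAR1 had signals of 660.4 under DMSO, 828 under PHA665752, 456 after sc siRNA and 505 after MET siRNA. The PHA665752 array was the highest and the transfected arrays were the lowest. The log2 ratio of PHA665752 over DMSO was 0.54, a 1.45-fold difference, and 26.7% of all probes with a ratio had a higher one. MET siRNA over sc siRNA gave 0.10 and sc siRNA over DMSO gave -0.28. For comparison, the noise between spots of an array, taken from probes spotted 10 times at like signal, was about 0.08 for a log2 ratio at this level. That noise covers the array surface alone and not the spread between cultures, which no value here measures.

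IFNAR2, the chain that carries the docking sites for STATs, was read by a pair of probes for the transcript NM_000874 and by 1 probe for NM_207585. Probe A_33_P3337540 gave 1547, 1656, 1280.3 and 1469 on the DMSO, PHA665752, sc siRNA and MET siRNA arrays, and probe A_33_P3361457 gave 473, 539.8, 385 and 438. In both, the PHA665752 array was the highest after scaling and sc siRNA the lowest, with the 4 arrays at most 0.33 and 0.45 apart on the log2 scale. Their log2 ratios were 0.31 and 0.41 for PHA665752 over DMSO, 0.15 and 0.14 for MET siRNA over sc siRNA, and -0.02 and -0.04 for sc siRNA over DMSO. The gaps between them were smaller than the median gap of 0.20, 0.10 and 0.14 found in the same comparisons over 2464 accessions with more than 1 probe. The probe for NM_207585 was near the detection limit. It gave 12.6 with DMSO and 15.8 with PHA665752, and 6.53 with sc siRNA and 7.35 with MET siRNA, neither of them well above background. Its log2 ratio of PHA665752 over DMSO was 0.53 with a spot noise of 0.23, no ratio was taken for MET siRNA over sc siRNA, and sc siRNA lay at least 1.04-fold below DMSO.

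The interferon gamma receptor chains were the steadiest of the genes. IFNGR1, which binds the ligand, gave 2793, 2703, 2705 and 2912 on the DMSO, PHA665752, sc siRNA and MET siRNA arrays. Its log2 ratios were 0.17 for PHA665752 over DMSO, 0.06 for MET siRNA over sc siRNA and 0.21 for sc siRNA over DMSO. IFNGR2, the chain that brings JAK2 to the receptor, gave 627.6, 576, 576 and 565 in the same order. Its log2 ratios were 0.09, -0.07 and 0.13, the narrowest range over the arrays among the genes with a value on all 4. For IFNGR1 the DMSO array was the lowest after scaling and the other arrays lay within 0.10 of each other. Among receptor probes well above background on all arrays, IFNAR1 had the widest range, 0.82 on the log2 scale.

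JAK1, the kinase shared by the type I and interferon gamma receptors, gave 554 under DMSO, 935 under PHA665752, 499 after sc siRNA and 549.7 after MET siRNA. The PHA665752 array stood apart from the other arrays, which lay within 0.20 of each other on the log2 scale after scaling. The log2 ratio of PHA665752 over DMSO was 0.97, a 1.96-fold difference with a spot noise of 0.08, just inside the 2-fold limit. With plain background subtraction it passed the limit, at 1.01. Of all probes with a ratio, 13.5% had a higher one. MET siRNA over sc siRNA gave 0.09 and sc siRNA over DMSO gave 0.10.

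TYK2, the kinase on IFNAR1, gave signals of 97.0, 92.0, 61.9 and 58.5 on the DMSO, PHA665752, sc siRNA and MET siRNA arrays. Both transfected arrays were lower than both others. For sc siRNA over DMSO the log2 ratio came to -0.39, a 1.31-fold lower level with a spot noise of 0.11, and 90.2% of all probes with a ratio had a higher one. PHA665752 over DMSO gave 0.14 and MET siRNA over sc siRNA gave -0.13.

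STAT2 and IRF9, both parts of ISGF3, followed the same order over the arrays. For STAT2 the scanner software marked the spot on the DMSO, PHA665752 and sc siRNA arrays because its local background stood out from that of other spots, so no ratio was taken. The median of the spot itself was 6208, 13295, 21414 and 25549 on the DMSO, PHA665752, sc siRNA and MET siRNA arrays, against a local background of 39, 35, 37 and 29. With the marks ignored, the processed signal was 5717, 12427, 20104 and 23694. On these values PHA665752 lay 2.51-fold above DMSO (log2 ratio 1.33), MET siRNA 1.15-fold above sc siRNA (0.21) and sc siRNA 4.22-fold above DMSO (2.08). The series table of the authors, which does not drop marked spots, gave STAT2 past 2-fold in the first and last of these comparisons as well.

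IRF9, which brings ISGF3 to DNA, gave 2410 under DMSO, 4123 under PHA665752, 7896 after sc siRNA and 10682 after MET siRNA. The DMSO array was the lowest, and both transfected arrays were higher than both others. Against DMSO, sc siRNA gave a log2 ratio of 1.97, a 3.91-fold difference with a spot noise of 0.07, and 0.872% of all probes with a ratio had a higher one. PHA665752 over DMSO gave 0.99, or 1.98-fold, which was just inside the 2-fold limit and passed it under quantile normalization, at 1.09, and under plain background subtraction, at 1.01. MET siRNA over sc siRNA gave 0.39, or 1.31-fold, with 9.69% of probes higher. IRF9 had the widest range over the arrays of the genes with unmarked spots above background on all 4, 2.35 on the log2 scale.

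IRF1, a transcription factor that also responds to interferon gamma, gave 178 under DMSO, 167 under PHA665752, 361 after sc siRNA and 524 after MET siRNA. The transfected arrays were both higher than the others, and DMSO and PHA665752 differed by 0.13 after scaling, against a spot noise of 0.11. Against DMSO, sc siRNA gave a log2 ratio of 1.28, a 2.42-fold difference, and 1.95% of all probes with a ratio had a higher one. MET siRNA over sc siRNA gave 0.49, or 1.41-fold, with a spot noise of 0.08 and 6.91% of probes higher, the largest ratio of the genes in that comparison. IRF1 therefore differed from IRF9 and STAT2 in the PHA665752 comparison, where its ratio lay near the middle of all probes, with 47.8% higher.

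**Figure D2:**
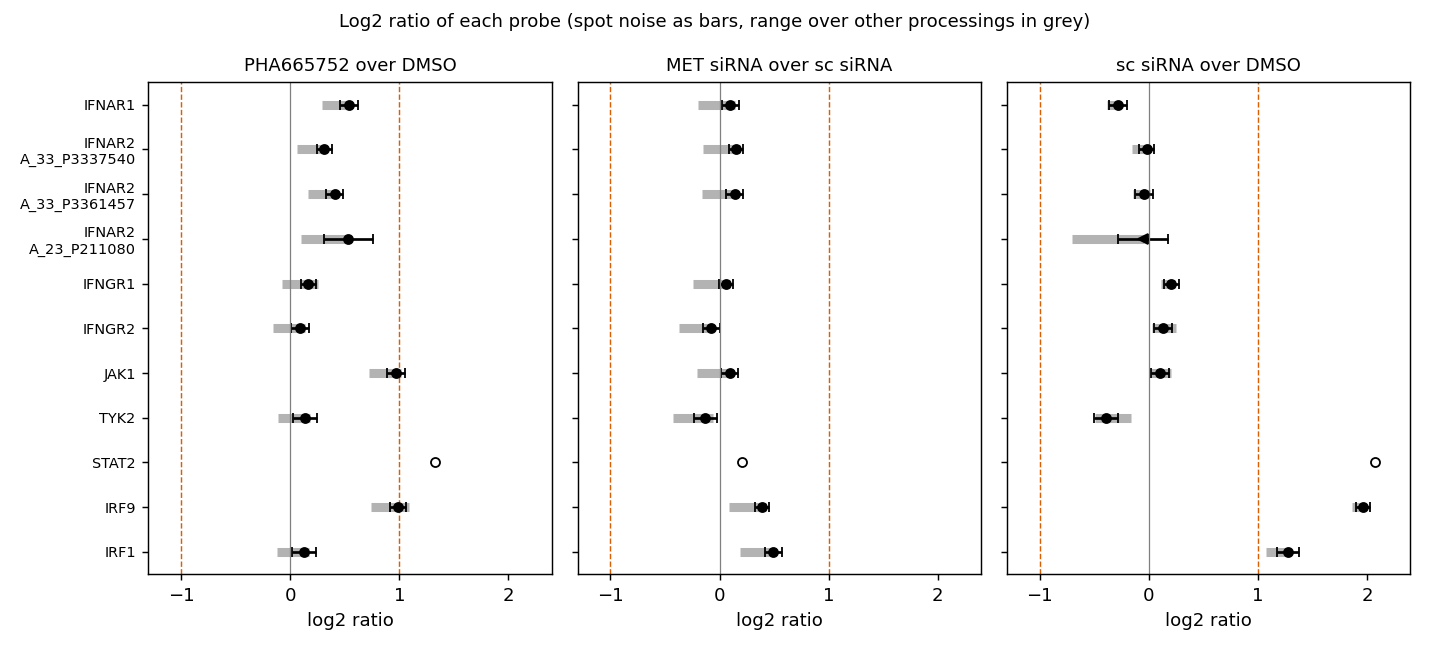
Log2 ratio of each probe in the 3 comparisons, with bars for the noise between spots, grey bands for the range over the alternative processings, a triangle for a bound, open circles for the STAT2 spots with marks ignored and dashed lines at 2-fold. IRF9 at 1.97 and IRF1 at 1.28 lay past 2-fold for sc siRNA over DMSO, and in the same panel the receptors, JAK1 and TYK2 lay between -0.39 and 0.21.

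Taken over the 10 probes with a ratio, the median for PHA665752 over DMSO was 0.36, against 0.09 for all probes, and all 10 were above 0. The sign of the small ratios depended on the scaling. With the 50th percentile in place of the 75th, the median of all probes moved by -0.25 and 4 of the 10 (IFNGR1, IFNGR2, IRF1 and TYK2) came to lie below 0. For MET siRNA over sc siRNA the median over 9 probes was 0.10, against -0.03 for all probes, with 7 above 0 and those of IFNGR2 and TYK2 below. Scaling to the median of probes well above background moved all probes by -0.29 in that comparison, after which IRF9 and IRF1 alone were above 0. For sc siRNA over DMSO the median was 0.04, against 0.0038 for all probes, with 5 above 0 and 5 below. Every IFNAR2 probe was among those below. By the brightest probe of each gene, that comparison had 5 of 8 genes above 0, with a median of 0.11. Taken the same way, the median was 0.24 for PHA665752 over DMSO and 0.10 for MET siRNA over sc siRNA.

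**Figure D3:**
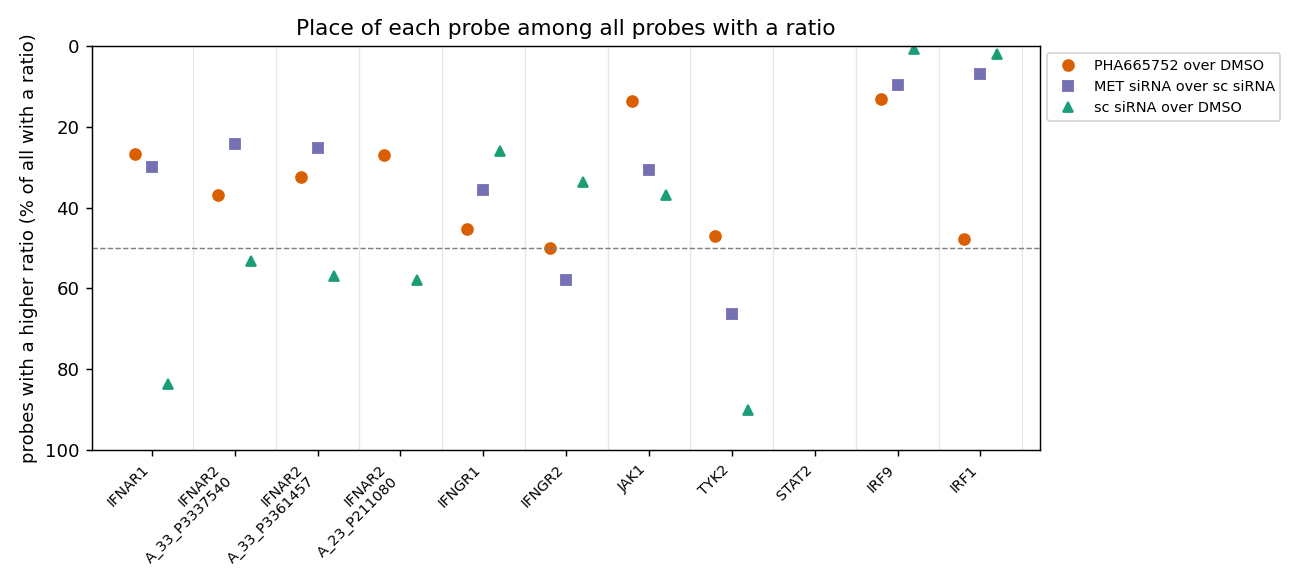
Share of all probes with a ratio that had a higher one than the probe shown, in percent, with the highest ratios at the top and a dashed line at 50%; STAT2 has no point because its spots were marked. For sc siRNA over DMSO, IRF9 at 0.872% and IRF1 at 1.95% lay at the top while TYK2 at 90.2% and IFNAR1 at 83.6% lay near the bottom.

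Promoter sequence from RefSeq (GRCh38.p14, 250 bases before to 50 after the start of transcription) was found for 8 of the 9 genes; IFNAR2 had none. The windows were searched on both strands for a GAS, TTCNNNGAA, which reads the same on both, and for an ISRE core, GAAANNGAAA. No window of the 8 genes held the ISRE core, which stood in 3.57% of 35116 windows of the same length, and this says only that those letters are absent from the window. A GAS stood in windows of 2 of the 8 genes (25%), IRF9 and IRF1. The share of all windows was 7.66%, counted per window and not per gene. Counted per gene, the share was 23.1% of ISGF3 target genes and 41.2% of interferon gamma and IRF1 target genes. It was 0% of the other STATs and JAKs. The stretches of IRF9 and IRF1 are shown, 5′ to 3′ on the gene's strand with the match in capitals. These are the genes past 2-fold for sc siRNA over DMSO. The IRF9 stretch is chr14:24161177-24161235 on the plus strand, with the match at bases -63 to -55 from the start, and the IRF1 stretch is chr5:132490864-132490922 on the minus strand, with the match at -124 to -116.
IRF9: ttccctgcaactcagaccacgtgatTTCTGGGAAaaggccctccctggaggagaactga
IRF1: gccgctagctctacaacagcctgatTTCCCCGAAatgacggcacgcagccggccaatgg

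The genes most like IRF9 over the 4 arrays were sought among 13074 named genes well above background on all of them, by the Euclidean distance between log2 values centred over the arrays. The nearest were HLA-F, a class I-like HLA gene, at 0.17, DDX60 at 0.24, RASEF at 0.25, PLEKHA4 at 0.29 and PARP14 at 0.29. For HLA-F, with the smallest distance, the signals were 216, 359, 647 and 820.1 on the DMSO, PHA665752, sc siRNA and MET siRNA arrays. The 5 genes had log2 ratios of 1.74 to 2.23 for sc siRNA over DMSO, 0.69 to 0.94 for PHA665752 over DMSO and 0.14 to 0.42 for MET siRNA over sc siRNA, where IRF9 had 1.97, 0.99 and 0.39. Likeness over 4 arrays is a description only.

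The partners of these genes were described from lists of the pathway, with the brightest probe of each gene. JAK2, which serves the interferon gamma receptor, gave -0.03 for PHA665752 over DMSO, 0.18 for MET siRNA over sc siRNA and 0.46 for sc siRNA over DMSO. Of the other STATs and JAKs, STAT5A (1.15) and STAT6 (1.01) were past 2-fold with PHA665752 over DMSO, 2 of 7 with a ratio, where 21.0% of all named genes were. Both lay near the 2-fold limit, and the count was 0 or 1 under 7 of the alternative processings. STAT5A was also dim, at 20.1 with DMSO and 38.6 with PHA665752. STAT3 gave 0.83 by its brightest probe and 1.11 by a dimmer one. Among the other IRFs, IRF7, which drives type I interferon genes, was the 1 of 7 past 2-fold with sc siRNA over DMSO, against 3.98% of all named genes. It gave 3.35 there, 0.90 for PHA665752 over DMSO and 0.43 for MET siRNA over sc siRNA.

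Ligands of the receptors were mostly not detected. Of 17 interferon genes on the array, 3 had a ratio for PHA665752 over DMSO. None of these was past 2-fold, where 21.0% of all named genes were. On the transfected arrays, IFNB1, a ligand of IFNAR1 and IFNAR2, gave 165 with sc siRNA and 555 with MET siRNA, against 2.63 with DMSO and 3.32 with PHA665752, neither well above background. Its level was at least 18.1-fold higher with sc siRNA than with DMSO, and 3.27-fold higher with MET siRNA than with sc siRNA. The lambda interferons signal through JAK1 and TYK2 from a receptor of their own. With sc siRNA over DMSO, IFNL2 was 9.48-fold higher, IFNL1 at least 12.5-fold and IFNL3 at least 2.96-fold. IFNB1, IFNL1 and IFNL3 were bounds, with a value only because they were well above background with sc siRNA and not with DMSO. IFNL3 was dim with sc siRNA, at 26.9. With MET siRNA over sc siRNA, IFNL2 was 3.51-fold and IFNL3 4.17-fold higher. Together with IFNB1, 3 of 5 interferon genes with a ratio were past 2-fold, against 2.74% of all named genes. The others, IFNE (-0.88) and IFNA4 (-0.49), were lower with MET siRNA than with sc siRNA. IFNL2 and IFNL3 are near-identical copies, and their probes may read each other's RNA. The mRNA levels of IFNB1 and the lambda interferons were higher on the same arrays as IRF9 and IRF1. Their part in the levels of IRF9 and IRF1 was not tested. What came from the lipid, the siRNA, the transfection medium or other handling of the transfected cells cannot be told apart.

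Negative regulators of the receptors and kinases were past 2-fold about as often as all named genes. SOCS1, an inhibitor of JAK1, JAK2 and TYK2, gave 1901 under DMSO, 230.3 under PHA665752, 1334 after sc siRNA and 1138 after MET siRNA, and was 7.12-fold lower with PHA665752 than with DMSO. SOCS3 was 4.64-fold higher in that comparison, PIAS2 was 2.39-fold lower and PTPN6, at 14.7 and 25.7 near the detection limit, was 2.02-fold higher, so that 4 of 16 negative regulators were past 2-fold, against 21.0% of all named genes. With another scaling, background correction or use of marked spots the count was 3. With sc siRNA over DMSO, 1 of 15 was past 2-fold, against 3.98% of all named genes, namely USP18, which binds IFNAR2 and is itself induced by interferon, at 20.3-fold higher. With MET siRNA over sc siRNA 0 of 12 were past 2-fold, against 2.74% of all named genes. Of 11 other receptor chains that use JAK1 or TYK2, IL22RA1 was the 1 past 2-fold with sc siRNA over DMSO, against 3.98% of all named genes. Its log2 ratio was 1.12.

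With sc siRNA over DMSO, 30 of 30 target genes of ISGF3 with a ratio or bound were more than 2-fold higher. Of all named genes, 3.98% were past 2-fold in either direction. The median log2 ratio was 3.31 against -0.01 for all named genes. The 1 bound was that of HERC5, not well above background with DMSO. Those with the largest ratios were RSAD2 (5.79), MX1 (5.66), MX2 (5.61) and OAS1 (4.76). With PHA665752 over DMSO, 7 of 30 were more than 2-fold higher and OAS3 (-1.11) was lower, where 21.0% of all named genes were past 2-fold in either direction, with a median of 0.51 against 0.08 for all named genes. MX2 (2.63), TRIM22 (1.69), MX1 (1.55), PARP9 (1.32), IFIH1 (1.19), IFIT2 (1.12) and XAF1 (1.01) were higher, and RSAD2 (0.31), OAS1 (0.14) and OASL (0.66) were not past 2-fold. With MET siRNA over sc siRNA, 0 of 29 were past 2-fold by their brightest probes, where 2.74% of all named genes were. The median was 0.25, against -0.02 for all named genes. The brightest probe of IFIT2 gave 0.89 in that comparison and a further IFIT2 probe gave 1.04, past 2-fold. Target genes of interferon gamma and IRF1 were past 2-fold higher in 8 of 22 with a ratio or bound for sc siRNA over DMSO, with a median of 0.76. Of all named genes 3.98% were past 2-fold in either direction there, with a median of -0.01. CXCL11 was at least 22.6-fold higher and CXCL10 at least 12.2-fold, followed by GBP4 (2.89), IDO1 (2.49), GBP5 (2.48), WARS1 (2.12), TAP1 (1.74) and NLRC5 (1.02). CXCL11 and CXCL10 were bounds, not well above background with DMSO, and were counted only because they were above it with sc siRNA. The bound of CD38 was lower, at -0.63, and CXCL9, well above background on no array, was left out. With no bounds the count past 2-fold was 6, and the median was 0.72. With PHA665752 over DMSO, 3 of 21 with a ratio or bound were past 2-fold, against 21.0% of all named genes. ICAM1 (1.53) and GBP2 (1.39) were higher and CD274 (PD-L1) was lower, at -2.84, while IRF1 itself gave 0.13. With MET siRNA over sc siRNA, 1 of 21 was past 2-fold, CXCL10 at 1.42, against 2.74% of all named genes.

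**Figure D4:**
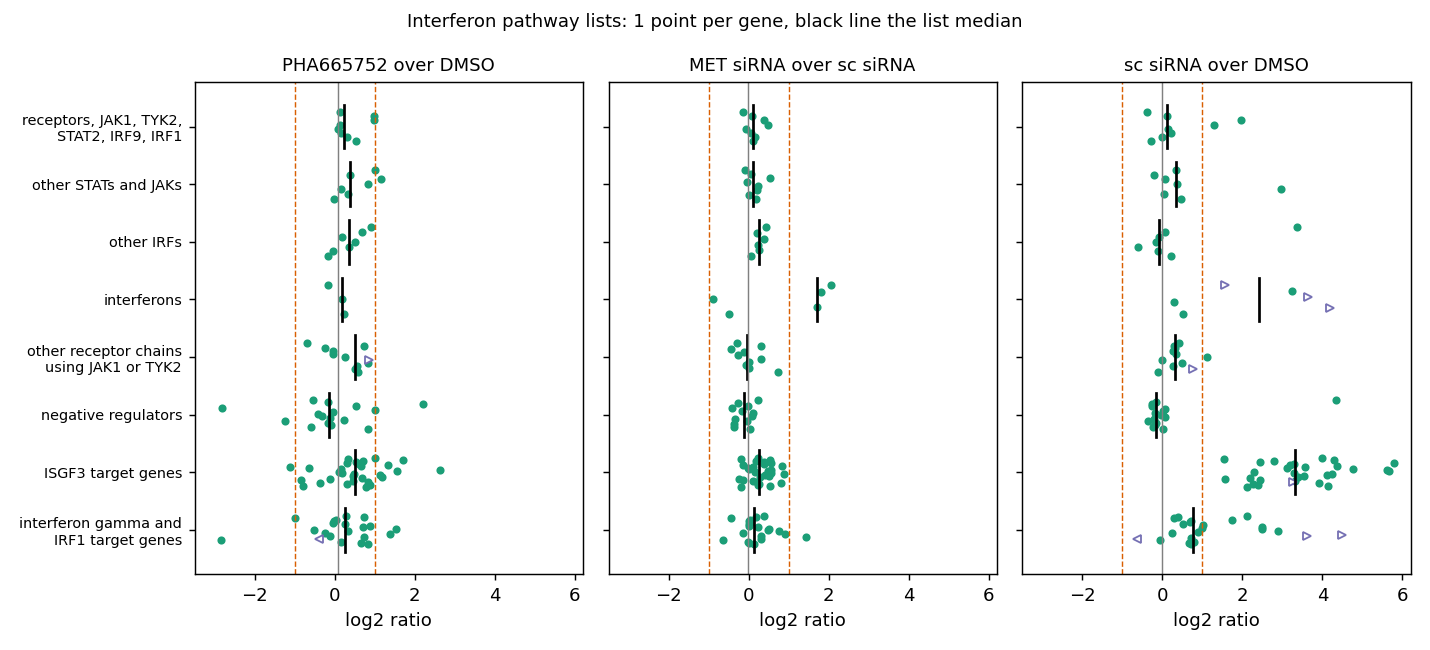
Log2 ratios of the genes of 8 pathway lists in the 3 comparisons, 1 point per gene, with triangles for bounds, black lines for the list medians, a grey line for the median of all named genes and dashed lines at 2-fold. The ISGF3 target genes lay between 1.53 and 5.79 for sc siRNA over DMSO, while the median of the receptors, JAK1, TYK2, IRF9 and IRF1, the 8 genes of their list with a ratio, lay at 0.11.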

How the data were processed

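RNA of 4 Hs746T samples was labelled with Cy3 and hybridised to single-colour Agilent arrays. The authors deposited the Feature Extraction (version 11.5.1.1) scanner output, in which the processed signal is a linear intensity after background subtraction and detrending, not normalized between arrays, beside quality marks for each spot, which are yes or no values of another kind than intensity. The deposited series table holds the same intensity, within 0.05 for the 33128 probes spotted once.

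Control spots and spots marked as outliers were dropped, log2 values were averaged over the spots of each probe, and each array's 75th percentile was subtracted. A probe well above background on 1 array of a pair gave a bound, for which its dim value was raised to the lowest signal above background on that array where it lay below it. Probes were named through a RefSeq table of GRCh38.p14. No test was possible with 1 array per condition, and precision is limited by the number of arrays. Calculations used Python 3.11.15, pandas 2.3.3, R 4.3.3 and limma 3.58.1, and the ratio rules were tested on simulated data. The genes and lists were chosen with earlier results of these data known. Named were all probes of the 9 genes, MET, JAK2, list genes past 2-fold in any comparison (up to 8 a list by size) and the 5 genes nearest to IRF9. OAS3, PARP9, IFIH1, XAF1, ICAM1, GBP2 and NLRC5 fall outside this limit and were named after their values were seen, and some items are not reported here. The 9 alternatives were the 50th percentile, quantile normalization, the median of probes well above background, normexp with an offset of 50, plain background subtraction, no bounds (ratios from probes above background on each of the paired arrays), no filter on dim probes, outlier marks ignored, and the series table. For lists, the median over a gene's probes was tried too.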

Additional observations from a re-analysis of the deposited data

Results flagged for a closer look

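The log2 ratios for the inhibitor and for MET siRNA had opposite signs for 2 of the 8 genes with a ratio in both comparisons. The difference was not tested. The log2 ratio of TYK2 was 0.14 for PHA665752 over DMSO and -0.13 for MET siRNA over sc siRNA, with a spot noise of 0.11 in each. That of IFNGR2 was 0.090 and -0.075, with a spot noise of 0.08 in each. All of these are within the shifts that another scaling of the arrays brings. With the 50th percentile, TYK2 and IFNGR2 were below 0 in both comparisons.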

How the results depend on the processing

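For PHA665752 over DMSO, 0 of the 10 probes with a ratio were past 2-fold (STAT2 had none), but 1 was under quantile normalization (IRF9), 2 were under plain background subtraction (IRF9 and JAK1), and 1 was with outlier marks ignored and with the series table (STAT2 in both). For MET siRNA over sc siRNA the count was 0 under all 9 alternatives. For sc siRNA over DMSO it was 2 (IRF9 and IRF1), and 3 with outlier marks ignored and with the series table, which add STAT2. The count of 30 ISGF3 target genes past 2-fold for sc siRNA over DMSO ran from 29 to 31 over the alternatives. No paired analysis was possible because each condition had 1 array. Dim probes, such as that of IFNAR2 NM_207585, lie near the lowest signal well above background, 10.2 to 17.4 on the 4 arrays.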
